A study of Homo sapiens with 4 samples.

Results

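The miR-17/92 cluster and its paralogue, the miR-106b/25 cluster, were examined in the small RNA of extracellular vesicles (EVs) released by PC3 cells. The members are the 9 main arms of their hairpins, chosen by name, of 2588 mature miRNAs in the count table. For miR-17/92 these are hsa-miR-17-5p, hsa-miR-18a-5p, hsa-miR-19a-3p, hsa-miR-20a-5p, hsa-miR-19b-3p and hsa-miR-92a-3p, and for miR-106b/25 they are hsa-miR-106b-5p, hsa-miR-93-5p and hsa-miR-25-3p, written below without the species prefix. PC3 is an established human line from a prostate tumour that had spread to bone. No treatment or genetic change is given for the cells, and the EVs were collected in medium with exosome-free bovine serum and isolated by a membrane affinity kit and gravity flow columns. Small RNA was sequenced from 2 biological replicates, and total RNA of the same kind of EVs from another 2 libraries. There is 1 condition, so no comparison between conditions was possible, and the values describe the EVs of a single line.

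Both clusters are transcribed as long primary RNAs that carry several hairpins. Drosha cuts out each hairpin, Dicer trims it to a short duplex, and usually 1 strand, the main arm, is loaded onto an Argonaute protein while the other is lost. The seed, bases 2 to 8 of the mature miRNA, largely determines which mRNAs are bound. miR-17/92 is known as an oncogenic cluster induced by MYC, and its targets include regulators of cell cycle arrest, apoptosis and TGF-beta signalling. The miR-106b/25 cluster lies within MCM7, a replication helicase gene, and shares seeds with miR-17/92.

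The mature sequences are shown because the members fall into 4 seed families that cut across both clusters. They are RefSeq sequences on GRCh38.p14, written 5′ to 3′ with the seed in capitals.
miR-17-5p: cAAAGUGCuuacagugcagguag
miR-20a-5p: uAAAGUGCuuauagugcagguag
miR-93-5p: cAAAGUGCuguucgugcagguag
miR-106b-5p: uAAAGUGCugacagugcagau
miR-18a-5p: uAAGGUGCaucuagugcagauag
miR-19a-3p: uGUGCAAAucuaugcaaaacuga
miR-19b-3p: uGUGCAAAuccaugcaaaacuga
miR-92a-3p: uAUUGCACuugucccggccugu
miR-25-3p: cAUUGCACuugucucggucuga
The first 4 share the miR-17 seed, miR-18a-5p has a seed of its own, the miR-19 pair share the miR-19 seed, and miR-92a-3p and miR-25-3p share the miR-25/92 seed. miR-19a-3p and miR-19b-3p differ by 1 substitution, U11C, with positions counted from 1 at the 5′ end of miR-19a-3p. miR-17-5p and miR-20a-5p differ by 2, and miR-92a-3p and miR-25-3p by 4. GC content ranged from 34.8% in miR-19a-3p to 54.5% in miR-92a-3p.

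On GRCh38, the 6 hairpins of miR-17/92 lie in order on the plus strand of chromosome 13, from MIR17 (chr13:91350605-91350688) to MIR92A1 (chr13:91351314-91351391). They are inside the long non-coding RNA gene MIR17HG (chr13:91347686-91397592), where GENCODE release 44 places each of them in an exon of 3 and in an intron of 8 of the 16 annotated transcripts. The hairpins of miR-106b/25 lie on the minus strand of chromosome 7, in the order MIR106B (chr7:100093993-100094074), MIR93 (chr7:100093768-100093847) and MIR25 (chr7:100093560-100093643). They are intronic in 8 or 9 of the 13 transcripts of MCM7 (chr7:100092233-100101940) and exonic in 0. miR-19b-3p and miR-92a-3p each have a second locus on chromosome X, MIR19B2 (chrX:134169671-134169766) and MIR92A2 (chrX:134169538-134169612), both on the minus strand, with an identical mature sequence. Their counts therefore cannot be split by locus.

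The small RNA libraries held 154185 and 113185 miRNA counts. Because their columns are named alike, neither can be matched to a replicate number, and paired values below follow the order of the columns (first, then second library). Levels are given in CPM, counts per 1000000 miRNA counts of a library. In small RNA libraries a read is a whole miRNA, so levels were not divided by length. Whether miRNAs of unlike sequence were captured equally was not tested, so levels of different miRNAs compare reads only. The smallest level that can be shown, taken as 3 reads, was 19.5 and 26.5 CPM, and the 95% intervals below cover counting error only.

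All 9 members had at least 1 read in both libraries, against 14.9% of the 2588 names in the table. With at least 10 reads in both the number was 6, against 5.56% of the names. Together the members took 2714 reads of the first library, or 1.76% (95% Wilson interval 1.70 to 1.83%), and 1313 of the second, or 1.16% (1.10 to 1.22%). The mean was 1.46% ± 0.424 (SD, n = 2). miR-17/92 held 2374 and 1147 of these reads, a mean of 12766 CPM ± 3722 (SD, n = 2). miR-106b/25 held 340 and 166, a mean of 1836 CPM ± 522 (SD, n = 2). The ratio of miR-17/92 to miR-106b/25 was 6.98 (exact 95% interval 6.23 to 7.85) and 6.91 (5.87 to 8.18), and the proportion between the clusters differed by less than counting error. Without miR-92a-3p this ratio was 1.74 (1.52 to 1.996) and 1.37 (1.11 to 1.68). A pair of other names, miR-3182 and miR-4448, took 50.5% and 57.2% of the miRNA counts, and every CPM value here is relative to a total that includes them.

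miR-92a-3p was the highest member. Its 1782 reads in the first library were 11558 CPM (95% Wilson interval 11036 to 12103), and its 920 reads in the second were 8128 CPM (7622 to 8668). The mean was 9843 CPM ± 2425 (SD, n = 2), and it ranked 15 among all miRNAs. It alone made up 75.1% (73.3 to 76.8%) and 80.2% (77.8 to 82.4%) of the counts of miR-17/92. The other member with its seed, miR-25-3p, had 238 reads, or 1544 CPM, and 127 reads, or 1122 CPM, a mean of 1333 CPM ± 298 (SD, n = 2). It held 70.0% (64.9 to 74.6%) and 76.5% (69.5 to 82.3%) of the miR-106b/25 counts. In each cluster the miRNA with the miR-25/92 seed was thus the highest. MIR25 and, on chromosome 13, MIR92A1 are the hairpins nearest the 3′ end, but the reads of miR-92a-3p may also come from MIR92A2, which is not the last of its cluster.

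Within that seed pair, miR-92a-3p exceeded miR-25-3p by 7.49-fold (exact 95% interval 6.54 to 8.61) and 7.24-fold (6.01 to 8.79). The proportion of these miRNAs differed between the libraries by less than counting error.

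**Figure D1:**
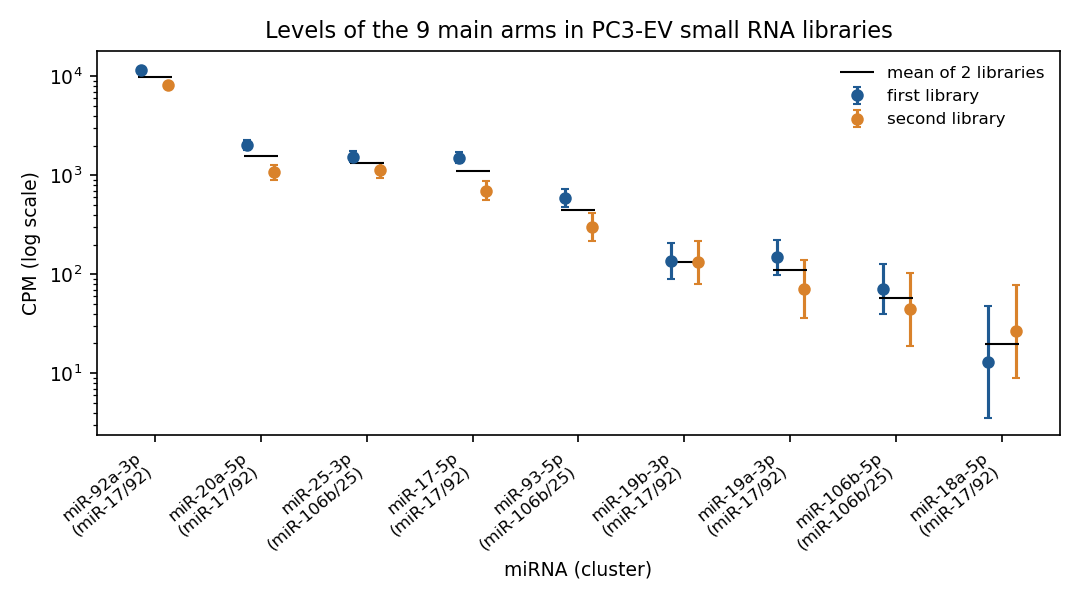
Level of each member in CPM (log axis) in the first and second small RNA library. Points are libraries, bars are 95% Wilson intervals of the counts, and black lines are means. miR-92a-3p is at 11558 and 8128 CPM, and miR-18a-5p at 12.97 and 26.5 CPM.

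Among the members with the miR-17 seed, whose targets include the cell cycle inhibitor CDKN1A, miR-20a-5p was the highest. It had 314 reads, or 2037 CPM, and 122 reads, or 1078 CPM. miR-17-5p had 232 reads, or 1505 CPM, and 79 reads, or 698 CPM. miR-20a-5p exceeded miR-17-5p by 1.35-fold (1.14 to 1.61) and 1.54-fold (1.15 to 2.08), an excess beyond counting error in both libraries. These miRNAs differ by only 2 substitutions, and the mismatch settings of the mapping are not given, which limits this ratio. miR-93-5p followed with 91 reads, or 590 CPM, and 34 reads, or 300.4 CPM. miR-106b-5p had only 11 reads, or 71.3 CPM, and 5 reads, or 44.2 CPM. It was the lowest member of miR-106b/25, and miR-93-5p, from the neighbouring hairpin, exceeded it by 8.27-fold (4.41 to 17.2) and 6.80-fold (2.65 to 22.3).

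The miR-19 pair was near the lower end. miR-19a-3p had 23 reads, or 149 CPM, and 8 reads, or 70.7 CPM. miR-19b-3p had 21 reads, or 136 CPM, and 15 reads, or 133 CPM. The ratio of miR-19a-3p to miR-19b-3p was 1.10 (0.580 to 2.08) and then 0.533 (0.196 to 1.34), so neither could be placed above the other. How reads that fit both were assigned is not given, which limits this ratio. miR-18a-5p, the only member with the miR-18 seed, was the lowest with 2 and 3 reads, a mean of 19.7 CPM ± 9.57 (SD, n = 2), which is at or below the level of 3 reads in both libraries.

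In order of mean level the members were miR-92a-3p, miR-20a-5p, miR-25-3p, miR-17-5p, miR-93-5p, miR-19b-3p, miR-19a-3p, miR-106b-5p and miR-18a-5p. The neighbours miR-20a-5p and miR-25-3p, miR-25-3p and miR-17-5p, miR-19b-3p and miR-19a-3p, and miR-19a-3p and miR-106b-5p differed by less than the larger of their SDs. The order of miR-20a-5p and miR-25-3p and of the miR-19 pair changed between the libraries. Levels within miR-17/92 thus spanned a ratio of 891 (exact 95% interval 246 to 7363) and 307 (105 to 1489.8) between miR-92a-3p and miR-18a-5p, with the part of miR-92a-3p that comes from its locus on chromosome X not known. miR-18a-5p at 2 and 3 reads sets the width of these intervals.

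**Figure D2:**
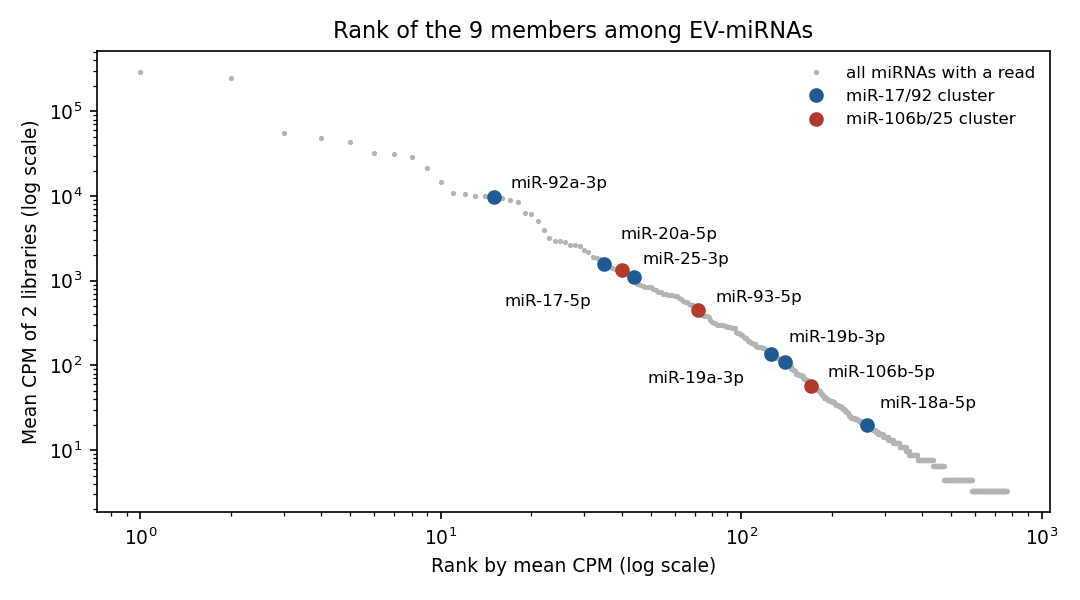
Mean CPM of every miRNA with a read in either library against its rank (both axes log), with the 9 members marked by cluster. The members run from rank 15 for miR-92a-3p to rank 263 for miR-18a-5p, whose level is tied with that of other miRNAs.

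By seed, the miR-25/92 family held 74.4% (95% Wilson interval 72.8 to 76.0%) and 79.7% (77.5 to 81.8%) of the members' counts. The miR-17 family held 23.9% (22.3 to 25.5%) and 18.3% (16.3 to 20.5%). The miR-19 family held 1.62% and 1.75%, and miR-18a-5p 0.0737% and 0.228%. The intervals of the miR-25/92 share, which cover counting error only, did not overlap between the libraries. The miR-17 share is nearly the rest of the same total, so its shift is not a separate result. Of the 208 miRNAs with at least 10 reads over both libraries, 35.1% differed in CPM between them beyond counting error.

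**Figure D3:**
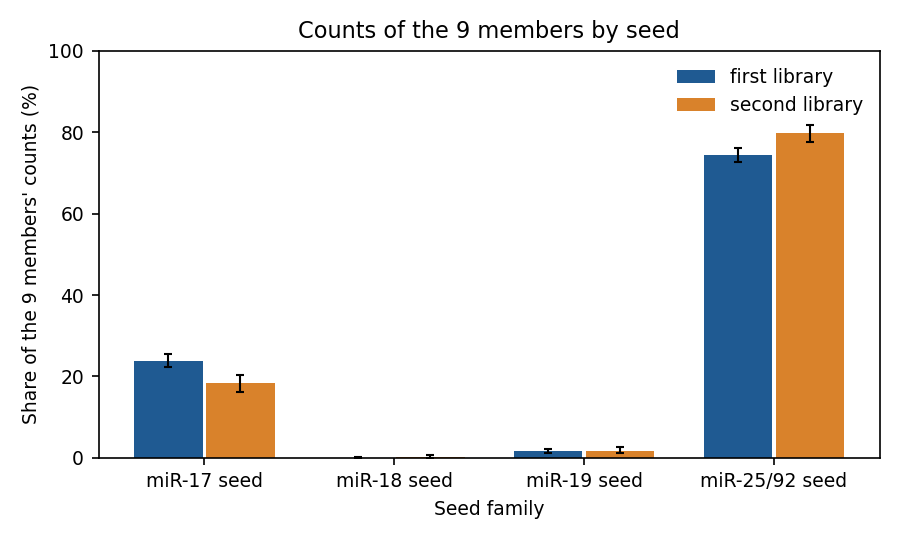
Share of the summed counts of the 9 members by seed family in each small RNA library, with 95% Wilson intervals. The miR-25/92 seed holds 74.4% and 79.7% and the miR-17 seed 23.9% and 18.3%.

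Among the 2281 of 2588 names matched to a RefSeq mature sequence, 10 others had one of these 4 seeds, and they added little. They had 63 and 27 reads in all, of which miR-92b-3p, from a separate hairpin on chromosome 1 (chr1:155195237-155195258, plus strand), had 59 and 25. Among the matched names, the members made up 99.8% and 99.6% of counts with the miR-17 seed and 97.0% and 97.6% of those with the miR-25/92 seed. miR-92b-3p, which differs from miR-92a-3p by 3 substitutions, was lower than miR-92a-3p by 30.2-fold (23.3 to 39.8) and 36.8-fold (24.8 to 57.2).

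The cluster of miR-106a and miR-363 on chromosome X is a further paralogue, and its own miRNAs were near absent from the counts. miR-106a-5p had 0 and 1 reads. miR-18b-5p, miR-20b-5p and miR-363-3p, and the other arms of all 4 hairpins, had 0 in both, below the level of 3 reads. Only 765 of the 2588 names in the table had a read in either library, so 0 in both was common at this depth. The sequence of the X-linked relative of miR-17-5p is shown because it differs from it only at the first base (C1A, from miR-17-5p). Its hairpin, MIR106A, is on the minus strand (chrX:134170198-134170278).
miR-106a-5p: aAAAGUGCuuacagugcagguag
A read that lacks the first base would match both, and how such reads were assigned is not given in the sources used here. The same holds for reads that fit both miR-92a-3p and miR-92b-3p.

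The arms of the hairpins were compared, since the arm named as main was not always the one with more reads. For mir-106b the other arm was higher. miR-106b-3p had 38 reads, or 246 CPM, and 24 reads, or 212 CPM, against 11 and 5 for miR-106b-5p. It made up 77.6% (95% Wilson interval 64.1 to 87.0%) and 82.8% (65.5 to 92.4%) of the hairpin's counts, above 50 percent beyond counting error in both libraries. It has another seed, and its sequence is shown as the product of this hairpin with more reads.
miR-106b-3p: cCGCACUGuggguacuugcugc
With miR-106b-3p, mir-106b remained the lowest hairpin of its cluster, below the 94 and 35 reads of mir-93.

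For the other hairpins the main arm had more reads in both libraries, apart from mir-18a, where the first library held 2 reads of each arm and the second 3 of miR-18a-5p and 2 of miR-18a-3p. miR-25-5p had 5 and 1 reads, miR-93-3p 3 and 1, and miR-17-3p 1 and 1. No read was counted on miR-19a-5p, miR-20a-3p or either 5p arm of mir-19b. For mir-20a, with 314 and 122 reads on the main arm, the upper bound of the Wilson interval for the other arm was 1.21% and 3.05%. The 5p arms of mir-92a differ between the loci, and miR-92a-1-5p of chromosome 13 had 0 and 2 reads while miR-92a-2-5p of chromosome X had 0 in both. Among the 110 miRNA names with both arms listed and at least 10 reads over both libraries, the 3p arm was the higher in 46. On counts summed over both libraries, the lesser arm held at least 20 percent in 15.5% of the 110, and its median share was 0.807%.

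**Figure D4:**
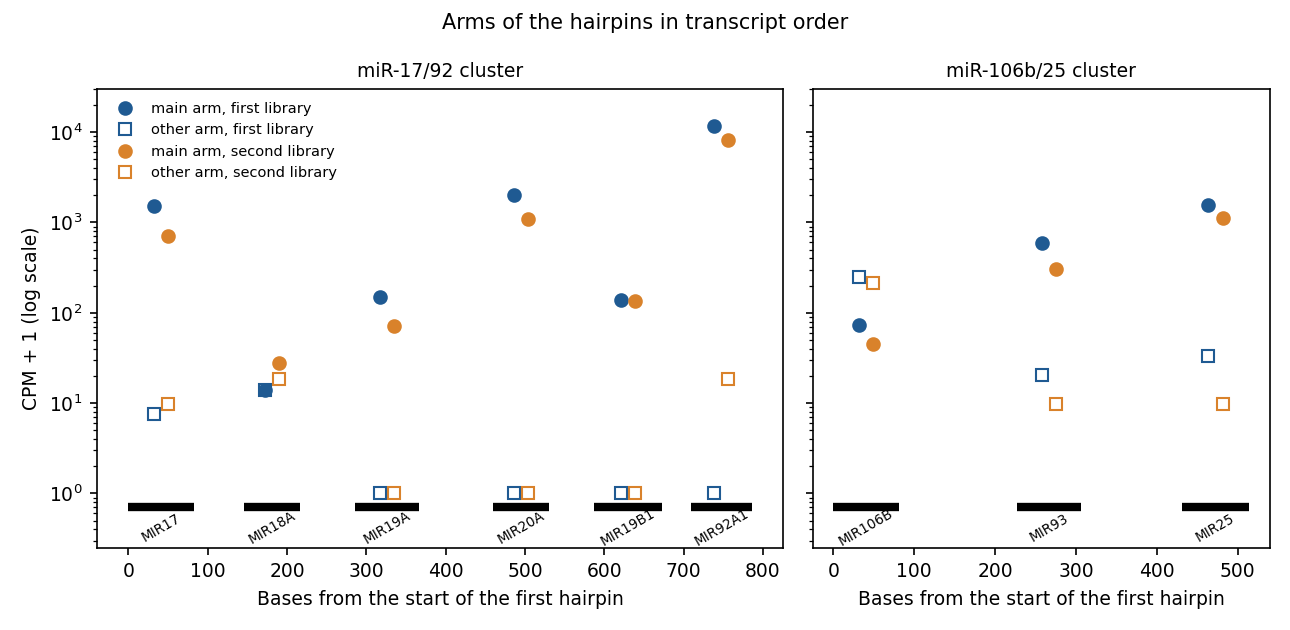
Level of each arm as CPM + 1 (log axis) against the distance in bases from the start of the first hairpin, in transcript order, with hairpins as black bars. Filled points are main arms and open squares the other arms, whose 2 loci are summed for mir-19b and mir-92a. Only MIR106B has the open squares above the filled points in both libraries.

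The libraries are replicates of a single condition, so their difference shows how well each level was determined. The ratio of CPM, second over first library, was computed with an exact conditional 95% interval for the 208 miRNAs with at least 10 reads over both, which 8 of the 9 members reached. The interval left out 1 and lay below it for 5 of these 8, against 29.8% of the 208, and it lay above 1 for 0 of them. The median ratio was 0.574 over the 8 members and 0.789 over the 208. The ratio was lowest for miR-17-5p, at 0.464 (0.355 to 0.601), followed by miR-93-5p at 0.509 (0.333 to 0.762) and miR-20a-5p at 0.529 (0.426 to 0.654) among those beyond counting error. It was 0.703 (0.649 to 0.762) for miR-92a-3p and 0.727 (0.581 to 0.905) for miR-25-3p. For miR-19a-3p, miR-19b-3p and miR-106b-5p the ratios were 0.474, 0.973 and 0.619, with intervals that held 1.

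These ratios depend on the total. The share of miR-4448 was 20.2% and 28.9%, and its part in the lower CPM of the members was not tested. With TMM scaling, which sets the bulk of the miRNAs level, the median log2 ratio of the 208 shifted by 0.29. The split of all calls then moved from 62 lower and 11 higher to 30 lower and 30 higher. Under TMM scaling 4 members remained lower in the second library, miR-17-5p at 0.569 (0.435 to 0.737), miR-93-5p at 0.624 (0.408 to 0.935), miR-20a-5p at 0.649 (0.522 to 0.803) and miR-92a-3p at 0.862 (0.796 to 0.934), and the interval of miR-25-3p held 1.

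**Figure D5:**
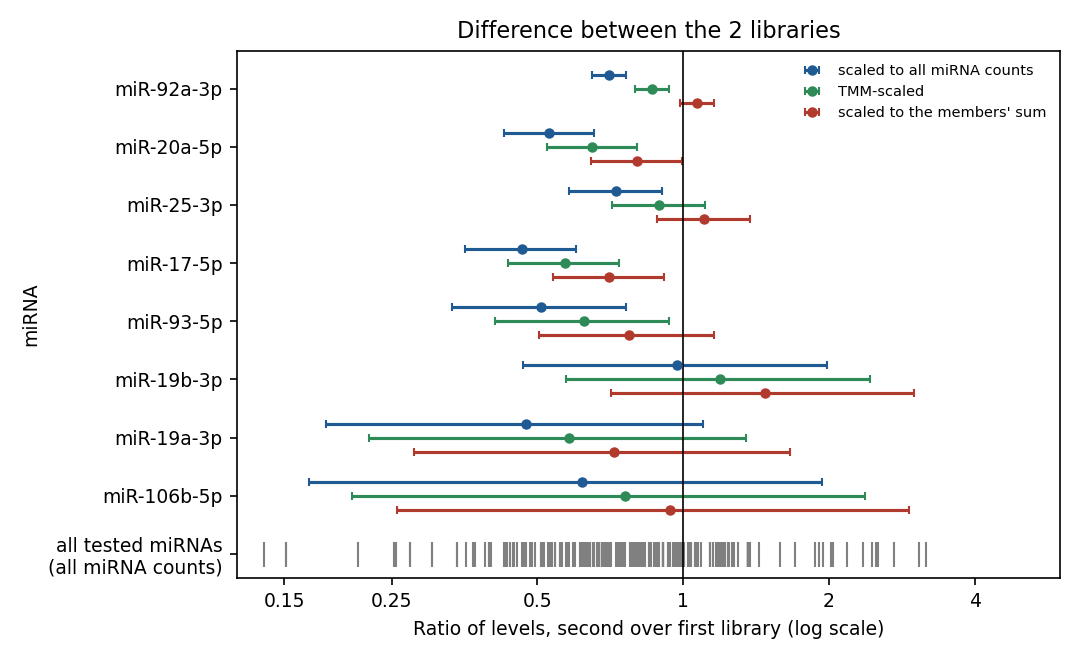
Ratio of levels, second over first library (log axis), for the 8 members with at least 10 reads over both, under 3 scalings, with exact 95% intervals. Grey ticks are the 208 miRNAs tested. The intervals of miR-17-5p and miR-20a-5p lie below 1 under each scaling. Scaling to the summed counts of the 9 members multiplies every ratio by the same factor, and the intervals of miR-92a-3p and miR-25-3p then hold 1.

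A ratio between members does not depend on the total. The counts with the miR-17 seed relative to those with the miR-25/92 seed were 0.321 and 0.229, an odds ratio of 0.715 (exact 95% interval 0.603 to 0.846). Within miR-17/92, miR-17-5p and miR-20a-5p relative to miR-92a-3p gave 0.713 (0.592 to 0.856). Most reads of the first odds ratio are those of miR-17/92, so these 2 values are not separate results. Within miR-106b/25, miR-106b-5p and miR-93-5p relative to miR-25-3p gave 0.717 (0.454 to 1.12), an interval that held 1 on far fewer reads. The miR-19 seed relative to the miR-25/92 seed gave 1.01 (0.578 to 1.72). These are 4 of 5 such ratios computed, chosen after the counts were seen, and the other, miR-17 over miR-19, was 0.709 (0.409 to 1.26). They compare 2 libraries and no condition.

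The non-member with the most similar levels was found for each of the 6 members with at least 10 reads in both libraries, by the distance over log2(CPM + 1) in the 2 libraries. miR-92a-3p was closest to miR-378a-3p, with 1570 and 1005 reads. miR-17-5p was closest to miR-125b-5p, miR-20a-5p to miR-128-3p, miR-25-3p to miR-4301, miR-93-5p to miR-361-3p and miR-19b-3p to miR-30e-3p. The distances ranged from 0.07 to 0.35, and over 2 libraries they say no more than that the levels were alike.

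Other clusters were read side by side. The cluster of miR-183, miR-96 and miR-182 held 2.09% ± 0.0246 (SD, n = 2) of the miRNA counts, that of miR-23a, miR-27a and miR-24 held 0.913% ± 0.363 (SD, n = 2) and that of miR-221 and miR-222 held 0.333% ± 0.0934 (SD, n = 2). All reads of miR-24-3p were counted to the miR-23a cluster, and whether some come from another locus was not checked. Mean levels spanned a ratio of 298 from miR-182-5p to miR-96-5p, 6.33 from miR-23a-3p to miR-27a-3p and 4.05 from miR-222-3p to miR-221-3p, against 499 in miR-17/92 and 23.1 in miR-106b/25. The value for miR-17/92 rests on the 2 and 3 reads of miR-18a-5p and was 891 and 307 in the single libraries, where that of the miR-183 cluster was 319 and 280, so the order of these spans is not settled at this depth. The ratio of second over first library was 1.02 (0.964 to 1.07) for the miR-183 cluster, 0.561 (0.514 to 0.611) for the miR-23a cluster and 0.669 (0.581 to 0.769) for the miR-221 cluster. For miR-17/92 it was 0.658 (0.613 to 0.707) and for miR-106b/25 0.665 (0.549 to 0.803).

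Several members are also abundant in blood, and serum is used in the culture, so miRNAs of blood and liver were read beside them. Of the 8 on this list, 3 had a read in both libraries, against 14.9% of the 2588 names in the table. The red cell and leukocyte markers miR-451a, miR-144-3p, miR-223-3p and miR-142-5p had 0 in both. Only 765 of the 2588 names had a read in either library, so these counts of 0 say little about serum. The list summed to 499 and 345 CPM. miR-486-5p had 6 and 7 reads, miR-150-5p 0 and 1, and miR-16-5p, which is widely expressed, 32 and 5. The liver miRNA miR-122-5p had 39 and 26 reads, a mean of 241 CPM ± 16.4 (SD, n = 2), against 134 CPM for miR-19b-3p. Their Wilson intervals overlapped in both libraries. They were 185 to 346 and 157 to 337 CPM for miR-122-5p, and 89.1 to 208 and 80.3 to 219 CPM for miR-19b-3p. The part of serum in the members' counts was not tested.

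The total RNA libraries were read for the host genes and the pathway, with 489170 counts on genes in replicate 1 and 475942 in replicate 2. Genes listed as markers of PC3 or epithelial cells were read first, beside the label. The epithelial keratin KRT8 had 966 and 1088 reads, KRT18 94 and 87, CD44 72 and 44, VIM 130 and 87 and EPCAM 2 and 26. With a single line in the data, these reads cannot set PC3 apart from other lines. KLK3, a prostate gene that is silent or low in PC3 cells, had 0 in both replicates, as did 57.7% of all protein-coding genes, so this count says little about the label. The level of 3 reads in these libraries was 6.13 and 6.30 CPM, and EPCAM was below it in replicate 1.

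MIR17HG, the host of miR-17/92, had 0 reads in replicate 1 and 26, or 54.6 CPM, in replicate 2. MCM7, the host of miR-106b/25, had 32 reads, or 65.4 CPM, and 17 reads, or 35.7 CPM. For the host of the larger cluster the replicates therefore disagreed on whether it was detected. Of the 9 hairpin genes, the identifiers of MIR106B, MIR93 and MIR25 matched the table, with 0 reads each.

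Of 19 host, transcription factor, processing and target genes, all but MIR17HG protein-coding, 8 had a read in both replicates (42.1%), against 21.9% of all protein-coding genes. A read in either replicate was found for 14 (73.7%), against 42.3% of protein-coding genes. MYC, which activates the miR-17/92 promoter, had 526 reads, or 1075 CPM, and 349 reads, or 733 CPM. E2F1, which both activates the cluster and is repressed by its miR-17 seed, had 0 and 6 reads, and E2F3 had 8 and 0. MYCN and E2F2 had 0 in both. Of the processing genes, the Argonaute AGO2 had 27 and 33 reads, DGCR8 6 and 12 and the exportin XPO5 4 and 4, whereas DROSHA had 51 and 0 and DICER1 8 and 0.

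Among 7 genes known as targets, 3 had a read in both replicates (42.9%), beside the 21.9% of all protein-coding genes. CCN2, a matrix growth factor gene, had 20 and 47 reads, BCL2L11, which encodes the apoptosis inducer BIM, 10 and 14, and THBS1, an inhibitor of vessel growth, 4 and 16. CDKN1A had 0 and 19 reads, and TGFBR2 and RBL2 had 0 in both. In total RNA of EVs, fewer transcripts per vesicle and fewer vesicles with a transcript cannot be told apart. The strand setting of the counting is not given, so reads of a gene and of one opposite to it cannot be separated.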

How the data were processed

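EVs of untreated PC3 cells were profiled in 2 small RNA and 2 total RNA libraries. The deposited small RNA values are raw counts of reads for each mature miRNA, made by the authors with Cutadapt (trimming) and SHRiMP (mapping). The deposited total RNA values are raw HTSeq counts for each Ensembl gene on GRCh38. Versions, mismatch and strand settings are not given in the sources used here. Between 97.5% and 97.8% of the total RNA reads were set aside by the counting and left out.

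The members and lists were chosen with earlier results of these data known. Counts were scaled to CPM. Shares carry 95% Wilson intervals, and ratios exact conditional intervals. The ratio intervals were tried on simulated counts that held counting error only, so that trial says nothing about spread between replicates. TMM factors (edgeR 4.0.16, R 4.3.3) used the 208 miRNAs with at least 10 reads over both libraries. All else used Python 3.11.15, scipy 1.17.1 and pandas 2.3.3. Of the 2588 names, 2281 matched a RefSeq mature sequence. No test between groups applies with 1 condition. Named are the members, their other arms, miRNAs sharing a seed, the X-linked paralogues, nearest levels and fixed lists. Tried as alternatives were TMM, totals without miR-3182 and miR-4448, other count minimums, single libraries and, added after the data were seen, the members' sum as total. The clusters set side by side were also picked with the data known. Of the gene lists read in total RNA, 2 genes are not reported here, 1 of which stays in the counts of targets and pathway genes.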

Additional observations from a re-analysis of the deposited data

How the results depend on the processing

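No paired analysis was possible because there is only 1 condition to compare in either assay, and small RNA columns named alike cannot be numbered. With each library alone, the 9 members summed to from 11601 to 17602 CPM, miR-17/92 to from 10134 to 15397 and miR-106b/25 to from 1467 to 2205. Either library taken singly held a read of all 9 members, against 622 (first) and 529 (second) of the 2588 names. Without miR-3182 and miR-4448 in the total, the sums moved to 31337, 27395 and 3941 CPM, because that total is smaller, and the level of each of the 9 members moved by more than its SD. With TMM scaling no member level or sum moved by more than its SD. The TMM factors were 1.11 and 0.903, so levels fell in the first library and rose in the second. A mean of the 2 therefore changes little by construction, and this does not test how far levels depend on scaling. Of the members, 5 differed between the libraries, and 2 did when scaled to the members' own sum, an alternative chosen after seeing the data. Both were lower, and of all 208 miRNAs 12 (5.77%) were then lower and 51 (24.5%) higher, against 62 and 11 before. This scaling multiplies every ratio by the same factor, so those above the ratio of the sums, 0.659, must turn to above 1, and they did for miR-92a-3p (1.07), miR-25-3p (1.10) and miR-19b-3p (1.48), all with intervals that held 1, while that of miR-93-5p (0.772) was no longer beyond counting error. The ratio of miR-19b-3p also turned, to 1.19 with TMM and 1.13 without the 2 names, and in no case did its interval leave out 1. That of miR-25-3p, 0.891 and 0.842, was then no longer beyond counting error. Among the 19 host and pathway genes, 14 had a read in either replicate (73.7%, against 42.3% of protein-coding genes). In both replicates 8 had a read (42.1%, against 21.9%). Taken singly, each replicate held a read for 11, those 8 included, and the share of protein-coding genes for a single replicate is not given here. Depth limits miR-18a-5p, miR-106b-5p and the miR-19 pair, with at most 23 reads in a library.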
